A study of Mus musculus with 8 samples.

Results

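The trophoblast genes described here are 10 genes that are commonly used to recognise the trophoblast lineage of the mouse: Cdx2, Elf5, Tfap2a, Tfap2c, Gata2, Gata3, Krt8, Krt18, Hand1 and Ascl2. They and the wider gene lists below were chosen by name, with earlier results of these data known. All 10 were found among the 55418 genes of the tables. Their RNA was measured by RNA-seq in 8 libraries of E14 embryonic stem cells (ESCs), a mouse line grown feeder-free on gelatin in medium with serum and leukaemia inhibitory factor. The 4 conditions, with 2 libraries each, were Control, Hira_KD, Ubn1_KD and Ubn2_KD, where KD is a knockdown by a short hairpin RNA (shRNA) in the pSuper puro plasmid. Cells received 1000 ng of plasmid and, from 24 h on, 1 µg/ml puromycin for 3 days, as the labels give it, so every group, control included, was a transfected and puromycin-selected culture of wild-type E14 cells. The study's methods give a slightly lower puromycin dose and an earlier start. The labels call the control cells wild type, the study's methods name a control shRNA, and which plasmid the sequenced controls received is not given. Depletion was partial in these pools of cells, and whether the libraries of a group came from separate cultures is not stated, so the p-values below measure the spread between these libraries only.

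Trophoblast forms the outer layer of the blastocyst, the trophectoderm, and later the fetal part of the placenta. Its stem cells are maintained by transcription factors such as Cdx2, Elf5, Eomes, Tfap2c and Gata3, and its epithelium contains intermediate filaments of the keratins Krt8 and Krt18, whereas Hand1 and Ascl2 act in differentiated derivatives, Hand1 in giant cells and Ascl2 in the ectoplacental cone. Mouse ESCs derive from the inner cell mass and ordinarily hold trophoblast genes at low levels, and the HIRA complex, to which Hira, Ubn1 and Ubn2 belong, is a chaperone that deposits the histone variant H3.3.

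Total counts lay between 19710040 and 32706053 per library. Levels are given as CPM, the counts of a gene scaled to the size of its library, with library sizes adjusted by TMM, a normalisation that centres most genes. A gene was called higher or lower at an adjusted p under 0.05, (edgeR's quasi-likelihood test, Benjamini-Hochberg adjusted over all genes tested) together with a fold change over 1.5, or 0.585 on the log2 scale. Each depletion removed part of its target: Hira fell by 3.22 on the log2 scale (SE 0.10, adjusted p = 5.57e-15), Ubn1 by 1.03 (adjusted p = 4.02e-07) and Ubn2 by 0.90 (adjusted p = 7.2e-07). All 10 markers of pluripotent ESCs were detected in all groups, with summed levels of 6934 and 7212 CPM in control, 6198 and 6322 in Hira_KD, 6527 and 6347 in Ubn1_KD and 6111 and 6254 in Ubn2_KD, so that every depleted library lay below both controls. Abundant markers weigh most in these sums. Dppa5a, for one, stood at a mean of 1297 CPM in control, 917 in Hira_KD, 895 in Ubn1_KD and 862 in Ubn2_KD. By log2 fold change, 5 markers were positive and 5 negative after Hira and after Ubn2 depletion. After Ubn1 depletion they numbered 6 and 4. Whether the lower sums bear on the members' changes was not tested. The 3 depletions share the same control libraries, so their changes are set side by side and differences between them were tested directly.

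In the control ESCs the 10 genes differed widely in level. Per kilobase of exon, Krt8 stood at 12.2 CPM, Krt18 at 9.12, Tfap2c at 6.89 and Ascl2 at 2.85. Tfap2a (0.385 CPM per kilobase), Gata2 (0.274) and Hand1 (0.210) were lower, and Cdx2 (0.0487), Elf5 (0.0136) and Gata3 (0.0079) lowest. From Tfap2a downwards each gene overlapped the next in this order between the control libraries, while Krt8, Krt18, Tfap2c and Ascl2 did not overlap their neighbours. Cdx2, Elf5 and Gata3 rested on 7, 4 and 2 reads in both control libraries together.

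**Figure D1:**
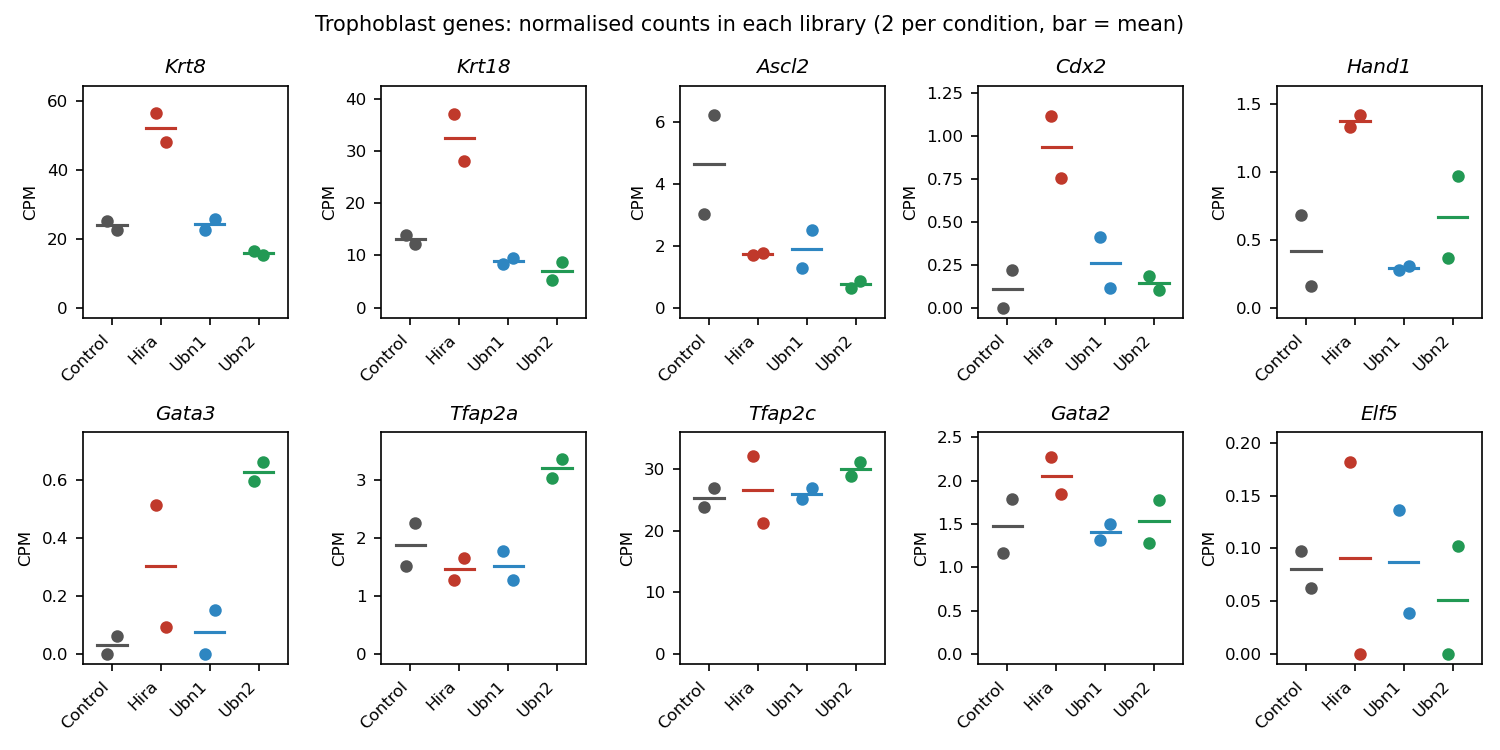
Normalised counts (CPM, vertical axis, linear and from 0) of the 10 trophoblast genes in each of the 8 libraries, grouped by condition on the horizontal axis, with a horizontal bar at the mean of 2 libraries. Krt8 and Krt18 were highest in both Hira-depleted libraries, Gata3 and Tfap2a in both Ubn2-depleted libraries, and Ascl2 was lower in every depleted library than in either control.

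Hira depletion raised 4 of the 8 members that could be tested, Cdx2, Krt8, Krt18 and Hand1, and lowered 1, Ascl2. In bulk RNA, a change in the number of cells that express a gene and a change in RNA per cell cannot be told apart. After Ubn2 depletion Gata3 and Tfap2a were higher, and Krt8, Krt18 and Ascl2 lower, again of 8 tested. After Ubn1 depletion Ascl2 was lower and 0 of 6 tested members were higher, also at an unadjusted p under 0.05 and with DESeq2's Wald test. Of all genes tested, 10.8% were called higher and 5.40% lower in the Hira comparison, 1.53% and 1.56% in the Ubn1 comparison, and 9.59% and 8.75% in the Ubn2 comparison. The median log2 fold change of the tested members was 0.78 (Hira), -0.22 (Ubn1) and 0.13 (Ubn2), beside medians over all genes of 0.01, 0.00 and 0.00. These counts and medians do not cover all 10 genes, because some failed the filter on low counts. Elf5 failed it in all 3 comparisons, Gata3 for Hira and Ubn1, Cdx2 for Ubn1 and Ubn2, and Hand1 for Ubn1. Cdx2 for Hira and Gata3 for Ubn2 passed it only through the libraries in which they were high, and so had to differ. Without Cdx2 the Hira comparison had 3 higher and 1 lower of 7, with a median of 0.44, and without Gata3 the Ubn2 comparison had 1 higher and 3 lower of 7, with a median of 0.02. Across the 3 depletions 7 members were called at least once, Cdx2 and Gata3 included, and 1 (Ascl2) in all 3. Tfap2c and Gata2 were tested and called in none, and Elf5 was tested in none. The shares of all genes called at least once or in all 3 were not computed.

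**Figure D2:**
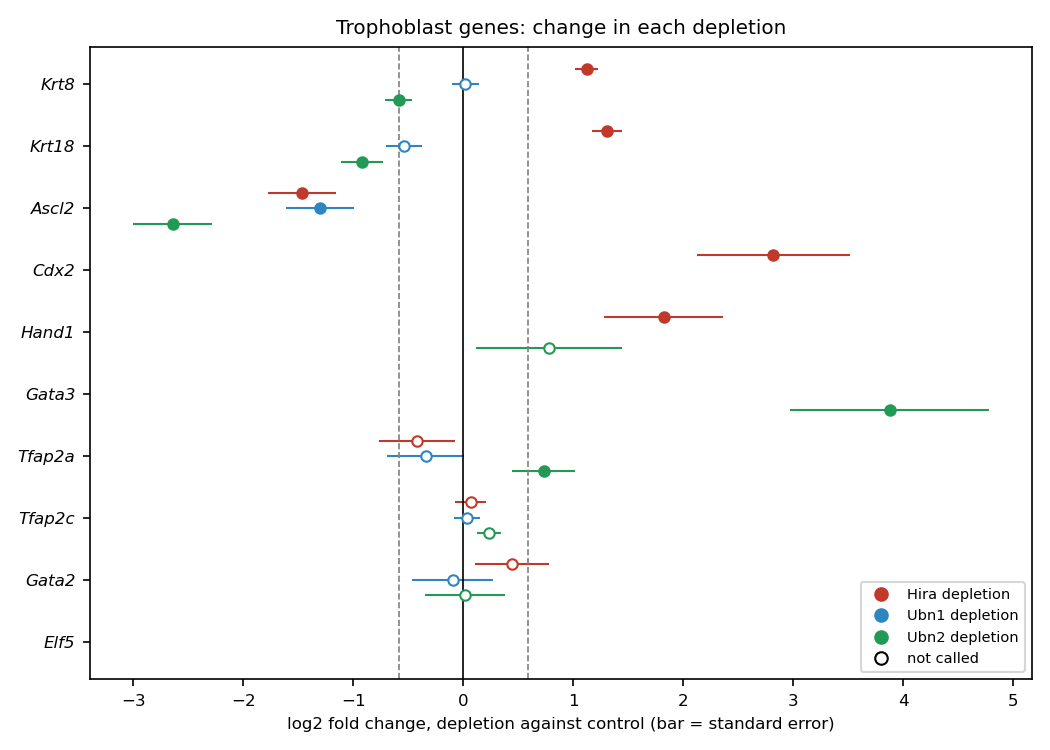
Log2 fold change against control (horizontal axis, with its standard error) of each trophoblast gene (vertical axis) after depletion of Hira, Ubn1 or Ubn2, filled where called and open where not, with dashed lines at a 1.5-fold change. Krt8 and Krt18 lay to the right after Hira depletion (1.12 and 1.31) and to the left after Ubn2 depletion (-0.59 and -0.92), and Ascl2 lay to the left in all 3, while Elf5 was tested in none.

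Krt8 and Krt18 encode the type II and type I keratins that pair into the filaments of simple epithelia, and they are among the first structural genes switched on in trophectoderm. The genes lie close together on chromosome 15 (GRCm38), Krt8 on the minus strand at chr15:101996698-102004482 and Krt18 on the plus strand at chr15:102028180-102032027, with 23698 bases between their starts. Krt8 stood at 25.2 and 22.7 CPM in the control libraries, 56.5 and 48.2 in Hira_KD, 22.6 and 25.8 in Ubn1_KD and 16.6 and 15.2 in Ubn2_KD. Both Hira-depleted libraries were thus above, and both Ubn2-depleted libraries below, every control and Ubn1-depleted library. Krt8 rose after Hira depletion by 1.12 on the log2 scale (SE 0.11, adjusted p = 1.2e-07 by edgeR's quasi-likelihood test), and its change after Ubn1 depletion was 0.02 (adjusted p = 0.951). The decrease after Ubn2 depletion was -0.59 (SE 0.12, adjusted p = 0.000606), just past the fold threshold, and fell short of it without control replicate 1 (-0.52) or without Ubn2_KD replicate 2 (-0.53).

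Krt18 was likewise highest in Hira-depleted cells and, on average, lowest in Ubn2-depleted cells. Its levels were 13.9 and 12.3 CPM in control, 37.1 and 28.1 in Hira_KD, 8.39 and 9.56 in Ubn1_KD and 5.24 and 8.67 in Ubn2_KD. No library of a depletion overlapped the controls, while the Ubn1- and Ubn2-depleted libraries overlapped each other. Krt18 rose by 1.31 after Hira depletion (SE 0.14, adjusted p = 3.95e-07) and fell by 0.92 on the log2 scale after Ubn2 depletion (SE 0.19, adjusted p = 0.000635), between -1.32 without Ubn2_KD replicate 2 and -0.59 without Ubn2_KD replicate 1. After Ubn1 depletion the change of -0.54 passed the test (SE 0.16, adjusted p = 0.0355) but not the fold threshold. The ratio of Krt8 to Krt18 CPM was 1.81 and 1.84 in control, 1.53 and 1.72 in Hira_KD, 2.70 in both libraries of Ubn1_KD and 3.16 and 1.75 in Ubn2_KD.

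Compared directly, Hira-depleted exceeded Ubn2-depleted ESCs by 1.73 for Krt8 (adjusted p = 9.14e-08) and 2.25 for Krt18 (adjusted p = 1.06e-06) on the log2 scale, and these calls were kept whichever library was left out. Of all genes tested, 12.0% were higher and 5.61% lower in that comparison, in which 4 of 9 tested members were called higher (Krt8, Krt18, Cdx2 and Ascl2) and 1 lower (Tfap2a). Cdx2 passed the filter there only through the Hira-depleted libraries, and without it 3 of 8 were higher. Hira-depleted cells also exceeded Ubn1-depleted cells for both keratins, by 1.12 (adjusted p = 1.06e-07) and 1.87 (adjusted p = 1.1e-09). Between Ubn2 and Ubn1 depletion Krt8 differed by -0.61 (adjusted p = 0.00365), which did not reach the fold threshold without Ubn1_KD replicate 2 (-0.52) or Ubn2_KD replicate 2 (-0.55), and Krt18 by -0.38 (adjusted p = 0.254). In the Hira against Ubn1 comparison 4 of 8 tested members were higher (Cdx2, Krt8, Krt18 and Hand1) and 0 lower, also at an unadjusted p under 0.05 in edgeR and with DESeq2, beside 9.52% and 3.16% of all genes. Cdx2 and Hand1 passed the filter only through the Hira-depleted libraries, and without them 2 of 6 were higher. In the Ubn2 against Ubn1 comparison 2 of 7 were higher (Tfap2a and Gata3) and 2 lower (Krt8 and Ascl2), beside 4.61% and 4.09%. Gata3 passed the filter only through the Ubn2-depleted libraries, and without it 1 of 6 was higher.

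Krt8 shares exonic sequence with Gm36026, a noncoding RNA on the opposite strand, and with the counting strand not given in the sources used here, reads from the shared stretch cannot be told apart. Gm36026 had 73 and 125 counts in control, 337 and 146 in Hira_KD, 67 and 65 in Ubn1_KD and 64 and 46 in Ubn2_KD, and it was higher after Hira depletion (log2 fold change 1.19, adjusted p = 0.000236). The 1 row named as a pseudogene of these keratins, Krt8-ps, held at most 6 counts in a library.

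The keratin promoters are shown because these neighbours moved in the same direction after Hira and after Ubn2 depletion. Promoter sequences here and below are from RefSeq on GRCm38.p6, run 5′ to 3′ along the gene's strand from 250 bases before to 50 bases after an annotated start, and 8 of the 10 members had one. Capitals mark matches, on either strand, to the motifs searched: TATAAA (the TATA box), CCAAT (the motif of NF-Y), GATAAG (that of Gata factors), CACGTG (an E-box), GCCNNNGGC (that of Tfap2 factors), CATTCC (Tead), GGGCGG (Sp and Klf) and TTTATGG (Cdx). The first (chr15:102004293-102004592, minus strand) holds GATAAG once and TATAAA on both strands, the 2 TATAAA matches overlapping, and the second (chr15:102027966-102028265, plus strand) holds GCCNNNGGC.
Krt8: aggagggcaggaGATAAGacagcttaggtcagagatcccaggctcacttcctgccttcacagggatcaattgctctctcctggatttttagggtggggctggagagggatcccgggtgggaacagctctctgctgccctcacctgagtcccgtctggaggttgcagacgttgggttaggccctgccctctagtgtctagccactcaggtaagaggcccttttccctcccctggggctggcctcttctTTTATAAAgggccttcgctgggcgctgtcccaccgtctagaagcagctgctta
Krt18: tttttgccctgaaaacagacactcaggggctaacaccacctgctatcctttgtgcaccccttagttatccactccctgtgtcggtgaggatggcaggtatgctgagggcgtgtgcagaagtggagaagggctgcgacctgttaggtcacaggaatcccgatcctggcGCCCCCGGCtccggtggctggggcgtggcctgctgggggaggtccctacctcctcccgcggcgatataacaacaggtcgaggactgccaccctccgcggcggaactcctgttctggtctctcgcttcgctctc
Among all 32851 promoters of this length, 13.6% hold TATAAA, 7.44% GATAAG and 16.6% GCCNNNGGC, and no motif of the set was found in both keratin windows. These matches describe letters in the window and not bound sites.

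**Figure D3:**
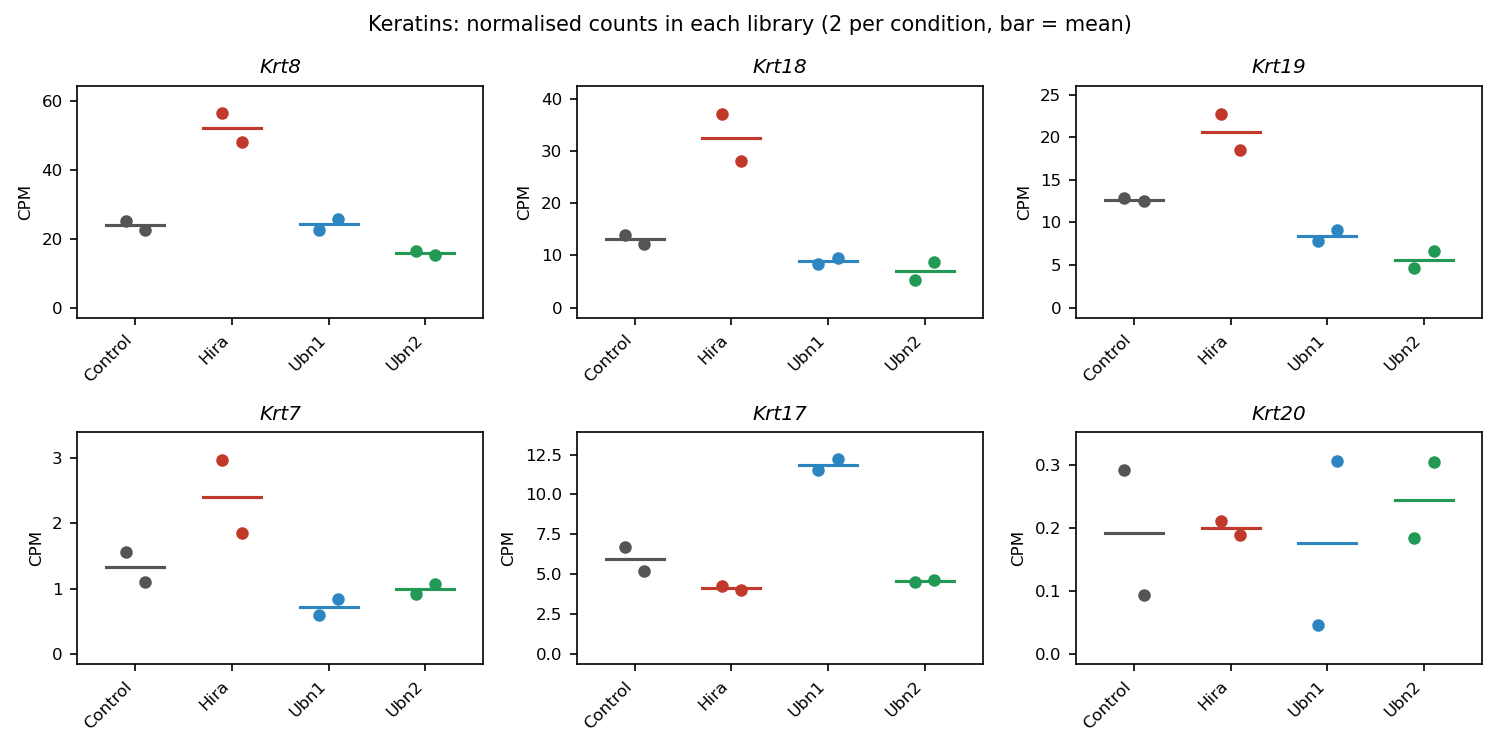
Normalised counts (CPM, vertical axis, linear and from 0) of 6 keratins in the 8 libraries, by condition on the horizontal axis, with a bar at the mean of 2 libraries. For Krt8, Krt18, Krt19 and Krt7 both Hira-depleted libraries lay above both controls, whereas for Krt17 both lay below them and the Ubn1-depleted libraries were highest, and Krt20 had at most 8 counts in a library.

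Of the other keratins, Krt19 stood at 12.8 and 12.5 CPM in control, 22.7 and 18.5 in Hira_KD, 7.75 and 9.10 in Ubn1_KD and 4.60 and 6.63 in Ubn2_KD. It rose after Hira depletion (log2 fold change 0.69, adjusted p = 0.000516) and fell after Ubn1 (-0.59, adjusted p = 0.0247) and Ubn2 depletion (-1.18, adjusted p = 2.68e-05), and Hira- and Ubn2-depleted cells differed by 1.90 (adjusted p = 3.38e-06). Krt7, which was added after its values were seen, had a change of 0.89 after Hira depletion (adjusted p = 0.0504), -0.85 after Ubn1 depletion (adjusted p = 0.262) and -0.40 after Ubn2 depletion (adjusted p = 0.469), none of them called. Krt17, a keratin of stratified and basal epithelia, ordered the groups differently. It stood at 6.72 and 5.19 CPM in control, 4.27 and 3.99 in Hira_KD, 11.5 and 12.2 in Ubn1_KD and 4.51 and 4.64 in Ubn2_KD. It rose after Ubn1 depletion (1.01, adjusted p = 0.000445), and its changes of -0.53 after Hira (adjusted p = 0.0671) and -0.37 after Ubn2 depletion (adjusted p = 0.173) were not called. Krt5 and Krt15, counted below among the epidermis markers, were called higher after Hira depletion (2.73, adjusted p = 0.000331, and 4.16, adjusted p = 0.00392). Their counts were 4 and 7 (Krt5) and 1 and 0 (Krt15) in control, and 49 and 29, and 13 and 10, in Hira_KD. Both passed the filter only through the Hira-depleted libraries, and so had to differ. Krt14, from the same list, had 0 and 1 counts in control and 3 and 0 in Hira_KD. Krt20, a keratin of the gut lining, had between 1 and 8 counts in every library and was not tested.

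Cdx2, the homeobox factor that specifies trophectoderm, was barely detected outside Hira-depleted cells. It had 0 and 7 counts in Control, 37 and 16 in Hira_KD, 9 and 3 in Ubn1_KD and 4 and 2 in Ubn2_KD. Both Hira-depleted libraries, at 1.12 and 0.759 CPM, were above every other library, whose highest was 0.410 CPM. A count of 0 in control replicate 1 allows up to 0.146 CPM (3 counts, counting error only). The log2 fold change after Hira depletion was 2.82 (SE 0.69, adjusted p = 0.00331), from 2.08 without control replicate 1 to 7.57 without control replicate 2, where the remaining control has 0 counts and the fitted value is no bound. On summed counts, 53 after Hira depletion against 7 in control, the ratio of rates was 7.32 with a 95% counting interval of 3.32 to 19.1.

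For the other depletions Cdx2 was too low to be tested, with ratios to control of 1.87 (0.679 to 5.61) for Ubn1 and 1.09 (0.301 to 3.77) for Ubn2. Hira-depleted cells exceeded Ubn2-depleted cells by 2.69 on the log2 scale (adjusted p = 0.00391, and 0.0798 without Hira_KD replicate 1) and Ubn1-depleted cells by 1.90 (adjusted p = 0.0192). The latter call was lost with DESeq2 (adjusted p = 0.151), without Hira_KD replicate 1 (1.56, adjusted p = 0.277) and without Ubn1_KD replicate 2 (1.21, adjusted p = 0.261).

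Gata3, a zinc-finger factor active beside Cdx2 in trophectoderm, was the rarest member in control and was called higher in Ubn2-depleted cells. Its counts were 0 and 2 in control, 17 and 2 in Hira_KD, 0 and 4 in Ubn1_KD and 13 and 13 in Ubn2_KD. Both Ubn2-depleted libraries (0.598 and 0.662 CPM) were above all others, while of the 19 reads after Hira depletion 17 came from replicate 1. The counts of 0 in control replicate 1 and Ubn1_KD replicate 1 allow up to 0.146 and 0.137 CPM. After Ubn2 depletion the fitted log2 fold change was 3.88 (SE 0.91, adjusted p = 0.00179), ranging from 3.22 without control replicate 1 to 6.71 without control replicate 2, where the remaining control has 0 counts and the fitted value is no bound, and the ratio of summed counts was 16.5 (95% counting interval 4.12 to 143). DESeq2 gave no adjusted p for it. After Hira depletion the gene did not pass the filter on low counts, the ratio was 9.19 (2.22 to 81.4), and with no filter the log2 fold change of 2.95 had an adjusted p of 0.0803. Hira- and Ubn2-depleted cells differed by -0.89 (adjusted p = 0.302), and Ubn2- and Ubn1-depleted cells by 2.85 (adjusted p = 0.0279), a call lost without Ubn1_KD replicate 1 (1.99), Ubn2_KD replicate 1 (2.92) or Ubn2_KD replicate 2 (2.79) and of 6.74 without Ubn1_KD replicate 2, where the remaining library of that group has 0 counts and the value is again no bound.

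Their promoters are printed as those of the members that were nearly silent in control and were called higher after different depletions. The first (chr5:147307200-147307499, minus strand) holds CCAAT, found in 37.4% of all promoters, and GCCNNNGGC. The second (chr2:9878551-9878850, minus strand) holds GCCNNNGGC at 3 places and GGGCGG, found in 35.7% of all promoters, at 2.
Cdx2: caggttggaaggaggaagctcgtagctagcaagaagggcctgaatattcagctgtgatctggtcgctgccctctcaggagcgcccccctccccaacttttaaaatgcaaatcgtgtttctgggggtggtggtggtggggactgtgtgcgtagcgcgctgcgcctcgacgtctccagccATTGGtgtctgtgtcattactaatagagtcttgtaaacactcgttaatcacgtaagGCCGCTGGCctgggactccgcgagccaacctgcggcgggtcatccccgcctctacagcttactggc
Gata3: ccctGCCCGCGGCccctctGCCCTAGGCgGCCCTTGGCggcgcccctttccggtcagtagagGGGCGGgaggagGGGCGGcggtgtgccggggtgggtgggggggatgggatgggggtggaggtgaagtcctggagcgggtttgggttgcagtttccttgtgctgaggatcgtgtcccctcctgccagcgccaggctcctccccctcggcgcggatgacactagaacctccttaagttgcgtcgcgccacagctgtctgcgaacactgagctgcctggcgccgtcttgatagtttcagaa
GC content was 57.3% in the Cdx2 window and 67.3% in the Gata3 window, beside a median of 52.7% over all promoters.

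Hand1, a basic helix-loop-helix factor of trophoblast giant cells that also acts in the heart and mesoderm, had 14 and 5 counts in control, 44 and 30 in Hira_KD, 6 and 8 in Ubn1_KD and 8 and 19 in Ubn2_KD. The Hira-depleted libraries (1.33 and 1.42 CPM) were the 2 highest of the 8, and the control libraries (0.682 and 0.157 CPM) were far apart. Hand1 rose by 1.82 after Hira depletion (SE 0.54, adjusted p = 0.0121), a call lost with DESeq2 (1.75, adjusted p = 0.0773) and without control replicate 2 (0.99, adjusted p = 0.241), and the value was 3.07 without control replicate 1. Its change after Ubn2 depletion was 0.78 (adjusted p = 0.375), and after Ubn1 depletion it was not tested, with a ratio of summed counts of 0.804 (0.373 to 1.69). Hira-depleted cells exceeded Ubn1-depleted cells by 2.23 (adjusted p = 0.0019). In that comparison Hand1 passed the filter on low counts only through the Hira-depleted libraries, and so had to differ. That the call was kept whichever library was left out is thus no check. The difference of 1.06 from Ubn2-depleted cells did not pass (adjusted p = 0.0927).

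Ascl2, the basic helix-loop-helix factor needed for the spongiotrophoblast and expressed from the maternal allele, was the member called in all 3 depletions, each time lower. Its levels were 3.02 and 6.22 CPM in the control libraries, 1.70 and 1.76 in Hira_KD, 1.28 and 2.50 in Ubn1_KD and 0.644 and 0.867 in Ubn2_KD. All 6 depleted libraries were below both controls, of which replicate 2 was the higher. The log2 fold change was -1.47 after Hira depletion (SE 0.31, adjusted p = 0.000942), -1.30 after Ubn1 depletion (SE 0.31, adjusted p = 0.00712) and -2.64 after Ubn2 depletion (SE 0.36, adjusted p = 6.61e-06). Without control replicate 2 the Hira and Ubn1 calls were lost (-0.83, adjusted p = 0.124, and -0.67, adjusted p = 0.432), and that after Ubn2 depletion was kept (-2.00, adjusted p = 0.000105). DESeq2 also gave the Ubn1 change an adjusted p of 0.055.

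Ubn2-depleted cells held less Ascl2 than Hira-depleted cells (a difference of 1.20, adjusted p = 0.0276) and than Ubn1-depleted cells (-1.34, adjusted p = 0.0429). Neither difference passed with DESeq2 (adjusted p = 0.145 and 0.18). The first was lost when any 1 library was left out (0.99 to 1.42), and the second without Ubn1_KD replicate 2 (-0.76) or Ubn2_KD replicate 1 (-1.14). Hira and Ubn1 depletion differed by -0.14 (adjusted p = 0.825). The promoter (chr7:142969215-142969514, minus strand), shown as that of the member lower in each depletion, holds CCAAT at 3 places and GGGCGG at 1.
Ascl2: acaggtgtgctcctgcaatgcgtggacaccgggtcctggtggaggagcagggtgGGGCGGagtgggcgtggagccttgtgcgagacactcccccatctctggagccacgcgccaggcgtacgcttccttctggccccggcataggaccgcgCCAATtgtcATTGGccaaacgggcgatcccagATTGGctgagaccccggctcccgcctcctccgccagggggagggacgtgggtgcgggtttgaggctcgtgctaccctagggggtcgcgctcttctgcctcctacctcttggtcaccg
Its GC content was 67.0%.

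Ascl2 lies on chromosome 7 at the edge of an imprinted domain with growth-restraining placental genes such as Cdkn1c, which encodes a cyclin-dependent kinase inhibitor, and Phlda2, and with the noncoding RNA Kcnq1ot1 that silences genes of the paternal copy. Of 10 other genes listed there, 8 were tested in each depletion. After Ubn1 depletion 4 were lower and 0 higher, with 1 higher at an unadjusted p under 0.05 in edgeR and 0 with DESeq2. After Hira depletion 2 were lower and 1 higher, and after Ubn2 depletion again 2 and 1. Of all genes tested, 1.56% were lower and 1.53% higher after Ubn1, 5.40% and 10.8% after Hira, and 8.75% and 9.59% after Ubn2 depletion. Slc22a18, a transporter gene of the domain, was the 1 gene called lower in each: it stood at 7.35 and 7.32 CPM in control and between 3.72 and 4.89 in the depleted libraries, with changes of -0.66 (Hira, adjusted p = 0.0114), -0.75 (Ubn1, adjusted p = 0.0208) and -0.77 (Ubn2, adjusted p = 0.0042). Phlda2 stood at 21.3 and 21.2 CPM in control, 15.4 and 13.1 in Hira_KD, 10.3 and 11.1 in Ubn1_KD and 9.70 and 12.7 in Ubn2_KD, and it fell after Ubn1 (-0.99, adjusted p = 1.78e-05) and Ubn2 depletion (-0.93, adjusted p = 2.23e-05). Cdkn1c fell after Ubn1 depletion (-1.02, adjusted p = 4.63e-05), and Kcnq1ot1 fell after Ubn1 (-0.87, adjusted p = 0.000366) and Hira depletion (-0.60, adjusted p = 0.0167). The neighbour Tspan32 rose after Ubn2 depletion (1.56, adjusted p = 3.8e-05) and after Hira depletion (0.77, adjusted p = 0.0452).

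Tfap2a and Tfap2c encode AP-2 factors that act in trophectoderm, and Tfap2a is also a regulator of surface ectoderm and neural crest. Tfap2a stood at 1.51 and 2.26 CPM in control, 1.27 and 1.66 in Hira_KD, 1.78 and 1.27 in Ubn1_KD and 3.03 and 3.36 in Ubn2_KD. Both Ubn2-depleted libraries were above all others. The rise after Ubn2 depletion was 0.73 (SE 0.29, adjusted p = 0.0486), and the call was lost with DESeq2 (adjusted p = 0.207), with no filter (0.0518), with all 8 libraries in one fit (0.073), and without control replicate 1 (0.49), Ubn2_KD replicate 1 (0.81) or Ubn2_KD replicate 2 (0.66). Changes after Hira (-0.42, adjusted p = 0.371) and Ubn1 depletion (-0.34, adjusted p = 0.613) were not called. Hira-depleted cells were below Ubn2-depleted cells by -1.14 (adjusted p = 0.00909), whichever library was left out, and Ubn2-depleted cells above Ubn1-depleted cells by 1.08 (adjusted p = 0.0237), which was lost with DESeq2 (adjusted p = 0.117) and without Ubn1_KD replicate 2 (0.84), Ubn2_KD replicate 1 (1.15) or Ubn2_KD replicate 2 (1.00). The antisense RNA Gm47061 overlaps exons of Tfap2a and had 7 and 3 counts in control and 9 and 16 after Ubn2 depletion, beside 31 and 72, and 66 and 66, for Tfap2a.

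Tfap2c, which ESCs and germ cells also express, was called in none of the comparisons: 23.9 and 26.9 CPM in control, 32.1 and 21.2 in Hira_KD, 25.1 and 26.9 in Ubn1_KD and 28.9 and 31.1 in Ubn2_KD. The Ubn2-depleted libraries were above both controls, and the other groups overlapped them. Its log2 fold changes were 0.07 (SE 0.14), 0.03 (SE 0.12) and 0.24 (SE 0.11) in that order, with adjusted p of 0.765, 0.913 and 0.0911. Gata2, which partners Gata3 in trophoblast and also acts in blood, stood at 1.17 and 1.79 CPM in control, 2.27 and 1.85 in Hira_KD, 1.32 and 1.498 in Ubn1_KD and 1.29 and 1.78 in Ubn2_KD. Only the Hira-depleted libraries lay above the controls, and its changes of 0.44, -0.10 and 0.02 had adjusted p of 0.328, 0.915 and 0.977. Elf5, an ETS factor of trophoblast stem cells whose promoter is methylated in ESCs, had between 0 and 6 counts in every library, too few to be tested in any comparison. Its counts of 0, in Hira_KD replicate 2 and Ubn2_KD replicate 1, allow up to 0.142 and 0.138 CPM.

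**Figure D4:**
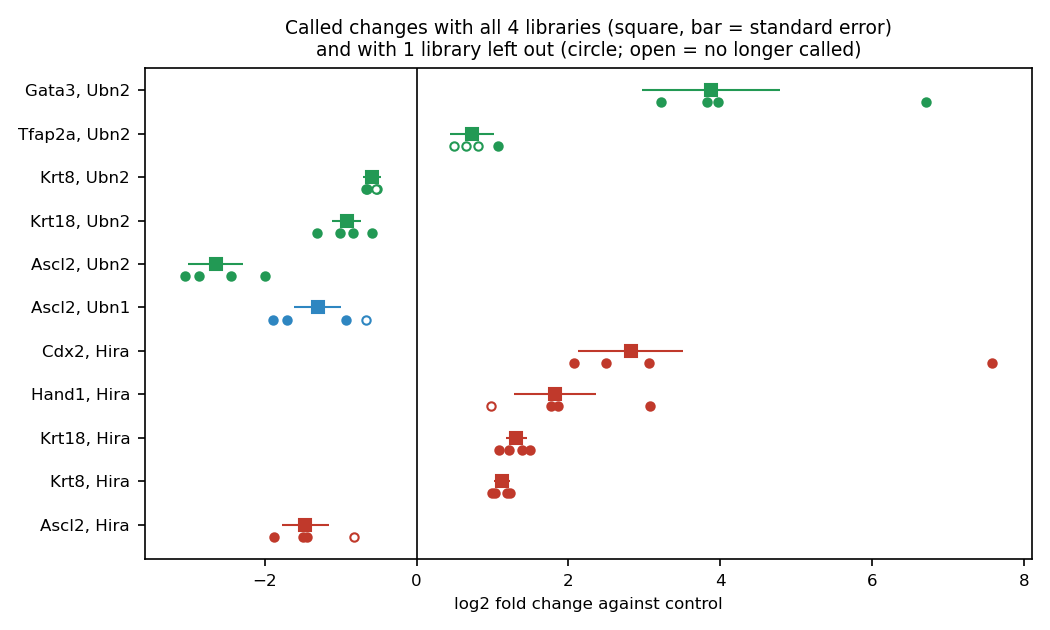
The 11 changes called in a depletion against control: the log2 fold change (horizontal axis) with all 4 libraries as a square with its standard error, and with each library left out in turn as circles, open where the change was no longer called. All circles stayed filled for Krt8 and Krt18 after Hira depletion, Cdx2, Gata3, and Krt18 and Ascl2 after Ubn2 depletion, and 3 of the 4 circles were open for Tfap2a. Cdx2 and Gata3 passed the filter on low counts only through the libraries in which they were high, so their filled circles are no check.

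Counts of the wider lists below stand beside the shares of all genes called: 10.8% higher and 5.40% lower in Hira_KD, 1.53% and 1.56% in Ubn1_KD, and 9.59% and 8.75% in Ubn2_KD. Genes that passed the filter only through the libraries in which they were high were not left out of these counts. Such genes include Gcm1, called higher, and Adm, called lower, after Ubn2 depletion. Among 24 other regulators of trophectoderm and trophoblast stem cells, 4 of 21 tested were higher and 0 lower after Hira depletion, with 2 lower at an unadjusted p under 0.05 in edgeR and 0 with DESeq2. Their median log2 change was 0.10. Plet1, a surface protein of trophoblast stem cells, rose after Hira depletion (1.60, adjusted p = 6.58e-06), and the transcription factors Msx2 (1.36, adjusted p = 0.00509) and Sox21 (1.09, adjusted p = 0.0015) rose with it. Sox21 was also the 1 regulator higher after Ubn1 depletion (1.23, adjusted p = 0.00112), where 0 of 21 were lower, with 3 at an unadjusted p under 0.05 and 0 with DESeq2. After Ubn2 depletion 5 of 22 tested were higher and 2 lower and the median was 0.19, with Sox21 (1.65, adjusted p = 4.95e-06) and the coactivator Cited2 (0.90, adjusted p = 9.62e-07) as higher and Cdx1, the relative of Cdx2 that acts in the gut and body axis, as lower (-1.40, adjusted p = 1.42e-06). Eomes, which with Cdx2 is required for trophoblast stem cells, changed by 0.46 after Hira depletion (adjusted p = 0.0325), under the fold threshold, and by 0.19 (adjusted p = 0.553) and -0.06 (adjusted p = 0.8) after Ubn1 and Ubn2 depletion. Fgfr2, the receptor through which FGF4 keeps these stem cells dividing, changed by -0.09, 0.04 and 0.13, with adjusted p of 0.47, 0.863 and 0.261.

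Among 22 genes of the trophectoderm epithelium, Krt19 included, 4 of 20 tested were higher and 2 lower after Hira depletion (median 0.38), 2 of 19 higher and 3 lower after Ubn1 depletion (-0.01), and 1 of 19 higher and 6 lower after Ubn2 depletion (-0.30). Cdh3, the placental cadherin, rose from 40.5 and 43.9 CPM in control to 116 and 121 after Hira depletion (1.47, adjusted p = 9.18e-11). Aqp3, a water and glycerol channel, rose after Ubn1 (1.00, adjusted p = 7.86e-07) and Ubn2 depletion (1.06, adjusted p = 1.66e-07), and the tight junction gene Cldn6 fell after Ubn1 depletion (-1.36, adjusted p = 9.17e-06). The fatty acid carrier Fabp3 fell after Hira (-0.59, adjusted p = 0.000346) and Ubn2 depletion (-0.74, adjusted p = 1.15e-06).

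Of 25 genes of differentiated trophoblast, 10 were at 0 in all 8 libraries, among them the placental lactogen genes Prl3d1 and Prl3b1, the spongiotrophoblast marker Tpbpa and the cathepsin Ctsq, and 12 were tested in each depletion. After Hira depletion 4 were higher and 0 lower (also 0 at an unadjusted p under 0.05 and with DESeq2), after Ubn2 depletion 2 higher and 2 lower, and after Ubn1 depletion 0 in either direction, with 1 higher and 3 lower at an unadjusted p under 0.05 and 0 with DESeq2. Esx1, Rhox6 and Rhox9 are homeobox genes of the X chromosome. Esx1 rose after Hira depletion from 4.09 and 4.71 CPM in control to 18.1 and 14.5 (1.87, adjusted p = 1.1e-07). Rhox6 rose after Hira (2.35, adjusted p = 6.17e-05) and Ubn2 depletion (2.42, adjusted p = 2.89e-05), as did Rhox9 (2.27, adjusted p = 0.000244, and 1.79, adjusted p = 0.00137). Adm, which encodes the peptide adrenomedullin, fell after Ubn2 depletion (-2.17, adjusted p = 0.00144).

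The Hippo pathway, which restrains the Yap1 and Tead factors upstream of Cdx2 and Gata3, was represented by 18 genes, all tested. After Hira depletion 2 were higher and 1 lower (median 0.08), with Ubn1 depleted 1 and 1 (0.10), and with Ubn2 depleted 5 and 1 (0.24). The Hira counts are close to the shares of all genes called, 10.8% higher and 5.40% lower. The Yap1 targets Ccn1 (1.23, adjusted p = 6.93e-06) and Ccn2 (0.84, adjusted p = 5.64e-05) rose after Hira depletion while the coactivator Wwtr1 fell (-0.88, adjusted p = 3.43e-07). The kinase gene Lats2 rose after Ubn2 (1.32, adjusted p = 2.92e-05) and Ubn1 depletion (0.79, adjusted p = 0.0149), Amotl2, a relative of Amot, rose after Ubn2 depletion (0.82, adjusted p = 1.26e-07), and Amot, whose product holds Yap1 outside the nucleus, fell in both (-1.26, adjusted p = 2.78e-05, and -0.72, adjusted p = 0.0189).

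**Figure D5:**
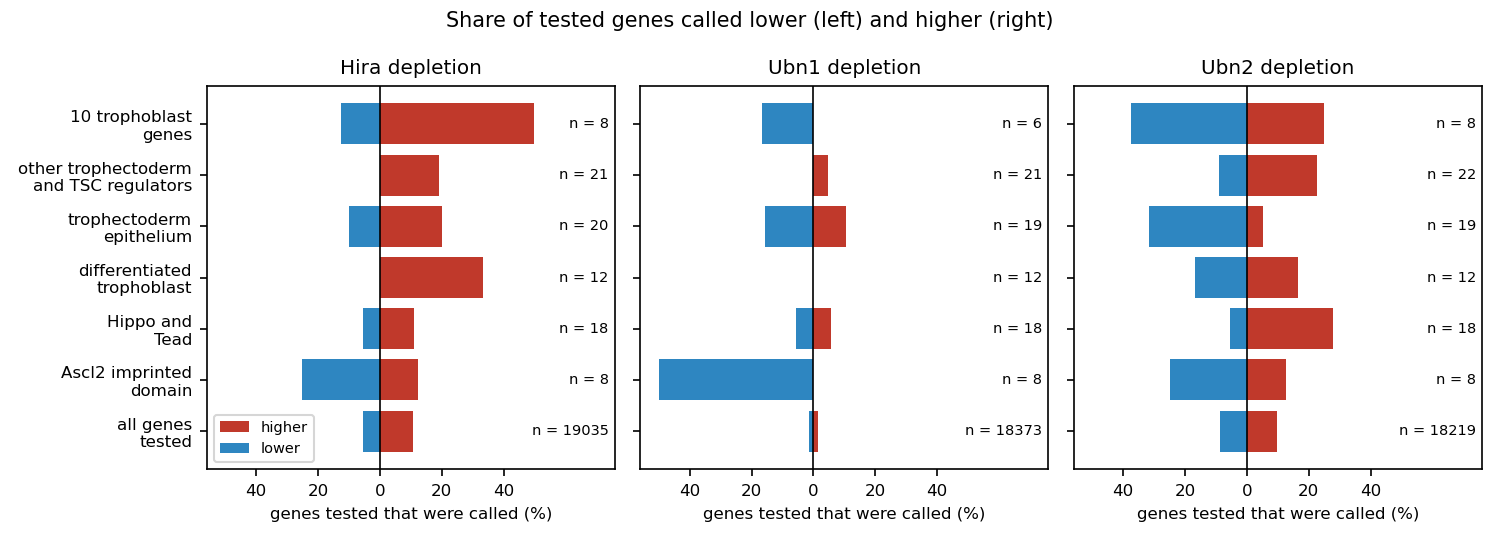
Share of tested genes called lower (blue, to the left of 0) and higher (red, to the right of 0) in each depletion for the 10 trophoblast genes, the 5 wider lists and all genes tested, as a percentage on the horizontal axis with the number tested at the right. The differentiated trophoblast list has 4 of 12 higher and 0 lower after Hira depletion and 0 in both directions after Ubn1 depletion, and the epithelium list has 6 of 19 lower after Ubn2 depletion.

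Markers of other cell types moved in the same libraries, and their part in the changes of the trophoblast genes was not tested. Some markers passed the filter on low counts only through the libraries in which they were high, and so had to differ. They include Krt5, Krt15 and Evx1 for Hira, Krt14 for Ubn1, and Evx1, Actc1, Tnnt2, Csrp3 and Tcstv3 for Ubn2 depletion. The counts of markers called were not recomputed without them. Markers of surface ectoderm and epidermis, in which Tfap2a and keratins are also active, summed to between 64.2 and 66.1 CPM in control, 138 to 143 after Hira depletion, 73.4 to 84.0 after Ubn1 depletion and 135 to 138 after Ubn2 depletion, with 5 of 6, 3 of 5 and 3 of 4 tested markers higher. Much of that sum was Perp, a membrane protein of desmosomes (2.25, adjusted p = 9.87e-12, after Hira and 1.96, adjusted p = 2.82e-11, after Ubn2 depletion). Heart muscle markers summed to between 49.4 and 55.1 CPM in control and 251 to 387 after Ubn2 depletion, with 9 of 12 higher and 1 lower, against 39.1 to 50.9 after Hira depletion, with 2 of 9 lower. Markers of the primitive streak and early mesoderm summed to between 41.6 and 52.6 CPM in all libraries. Most of that sum was Bmp4, at a mean of 37.1 CPM in control, 35.5 in Hira_KD, 40.5 in Ubn1_KD and 25.1 in Ubn2_KD. After Hira depletion 3 of the 10 tested markers were called higher (Evx1, Wnt3 and Kdr) and 1 lower (Tbx6). With Ubn2 depleted the calls were 3 higher (Mesp2, Evx1 and Kdr) and 2 lower (T and Fgf8) of 7.

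Neural crest markers summed to 53.9 and 65.6 CPM in control, 82.1 to 99.4 after Hira depletion (2 of 6 higher), 70.1 in both libraries after Ubn1 depletion and 97.3 to 102 after Ubn2 depletion (3 of 6 higher). Markers of the 2-cell-like state, in which a small share of ESCs resembles the early embryo, summed to 6.87 and 3.40 CPM in control, 18.3 to 24.5 after Hira, 14.4 to 14.7 after Ubn1 and 26.4 to 34.7 after Ubn2 depletion, with 5 of 5, 4 of 5 and 6 of 6 tested markers higher. Primitive endoderm markers summed to between 232 and 248 CPM in control, 285 to 292 after Hira depletion (2 of 11 higher), 230 to 251 after Ubn1 depletion (2 of 11 lower) and 204 to 222 after Ubn2 depletion. Most of the rise in that sum after Hira depletion lay in Lamb1 (mean 100 to 131 CPM) and Col4a1 (57.6 to 74.6), neither called. The 2 called were Sox17 and Amn, and with 6 markers positive and 5 negative the median log2 fold change was 0.03. Primordial germ cell markers, a lineage that uses Tfap2c, summed to 197 and 213 CPM in control and 240 to 268 in the depletions, with 2 of 8, 1 of 8 and 3 of 7 tested markers higher after Hira, Ubn1 and Ubn2 depletion. Of the 10 pluripotent markers 0 were called by edgeR after Hira or Ubn1 depletion, where 2 higher and 5 lower after Hira and 2 higher and 3 lower after Ubn1 depletion had an unadjusted p under 0.05, and 0 were called with DESeq2. After Ubn2 depletion Tbx3 was higher (0.71, adjusted p = 4.78e-07) and Tdgf1 (-0.78, adjusted p = 1.32e-08) and Dppa5a (-0.59, adjusted p = 1.21e-06) were lower.

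For each called member, the gene whose profile over the 8 libraries lay closest was found as the smallest root mean square difference of mean-centred log2 CPM among the genes averaging at least 1 CPM. For Krt8 it was Mrc2, an endocytic collagen receptor, at 0.112, against a spread of Krt8 itself of 0.628. Acan was nearly as close to Krt8, at 0.113. Mrc2 stood at 8.28 and 7.20 CPM in control, 15.1 and 12.4 in Hira_KD, 6.20 and 7.57 in Ubn1_KD and 4.83 and 4.54 in Ubn2_KD. For Krt18 the closest was Gm9269 at 0.182, followed by Tgfa at 0.191. For Tfap2a it was Gm6658 at 0.153, for Ascl2 Aoc3, an amine oxidase gene, at 0.276, and for Hand1 Spocd1, a gene of germline methylation, at 0.282. The matches of the 2 rarest called members were loose, with Gab2 at 0.677 from Cdx2 and Rps12-ps1 at 0.941 from Gata3. With 8 libraries in 4 groups these are the nearest of many profiles and describe likeness in these libraries only.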

How the data were processed

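The authors made the counts from paired reads with Trim_galore (trimming), STAR (alignment to GRCm38) and featureCounts (counting per gene). The versions and the strand setting are not given in the sources used here. The deposited values are raw counts, unnormalised, in 3 tables, 1 per knockdown, whose control columns were found equal (0 differing values). Each pair of groups was fitted with edgeR 4.0.16 in R 4.3.3 (TMM, filterByExpr, quasi-likelihood test, Benjamini-Hochberg adjustment over all genes tested), on its own 4 libraries. Calls needed a change of over 1.5-fold and an adjusted p under 0.05. With 2 against 2 libraries an exact permutation test of a single gene cannot go below p = 0.333 (two-sided) and was not used. Ratios of summed counts carry exact binomial 95% intervals, and intervals and floors of 3 counts cover counting error only. Positions and exon lengths are from GENCODE M21, and nearest profiles used a pseudocount of 0.5 counts.

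The members and all gene lists were chosen with earlier results of these data known. Named are all members, the depleted genes, Eomes and Fgfr2, up to 3 called genes per list and depletion with the smallest adjusted p, and the nearest profile of each called member. Krt7 and Krt20 were added after their values were seen, and most genes this rule picks from marker lists are given only within their list's counts. Genes that weigh most in a marker sum, and the called markers of the primitive streak, were also named after their values were seen. So were Acan, Tgfa and the list genes given as passing the filter only where they were high. Alternatives were DESeq2 1.42.0 (Wald test), its size factors in edgeR, a replicate block, no filter, 10 counts or more in each library, 1 fit over all 8 libraries, calls on the adjusted p alone, and leaving out each library. Same-numbered libraries were checked for shared deviations from their group means: r lay between -0.05 and 0.07 across genes, so the numbers were not taken as pairs. The fit was tested on simulated data made from the Hira and control libraries. Figures used matplotlib 3.10.9, and tables Python 3.11.15, numpy 2.4.6, pandas 2.3.3 and scipy 1.17.1.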

Additional observations from a re-analysis of the deposited data

How the results depend on the processing

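Each library was left out in turn, and 7 other settings were tried. The 2 libraries per group limit every call, and Cdx2, Gata3, Elf5 and Hand1 are further limited by counts of at most 44 in a library. The replicate numbers were not taken as pairs. With the replicate block as a term, the called genes rose from 0 to 1 for differentiated trophoblast and from 1 to 2 for other regulators, both after Ubn1 depletion, no other count moved by over 1.5 times and no call of a member changed. Across all genes tested, calls on the adjusted p alone numbered 3357 higher and 3287 lower after Hira depletion in place of 2050 and 1027, 760 and 666 in place of 282 and 286 after Ubn1 depletion, and 3645 and 3473 in place of 1748 and 1595 after Ubn2 depletion, and DESeq2 called 159 and 136 after Ubn1 depletion, 538 and 484 in place of 840 and 744 in Ubn2 against Ubn1, and 1073 higher in place of 1791 in Hira against Ubn1. On the adjusted p alone, Hira against Ubn2 gave 3455 and 3186 (2222 and 1042), Ubn2 against Ubn1 1566 and 1453, and Hira against Ubn1 1917 lower (595). The share of higher among called genes fell from 66.6% to 50.5% for Hira, from 68.1% to 52.0% for Hira against Ubn2 and from 75.1% to 58.2% for Hira against Ubn1. Without control replicate 1 the Ubn1 calls numbered 172 and 178, and without control replicate 2 the lower calls 183. The cause of the changes below was not tested beyond the setting itself.

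With DESeq2 the members called were 0 higher after Ubn2 depletion (2 in edgeR), 0 lower after Ubn1 depletion (1), and 0 higher (2) and 1 lower (2) in Ubn2 against Ubn1 depletion. List genes called with DESeq2 numbered 3, 3 and 4 for the epithelium after Hira, Ubn1 and Ubn2 depletion (6, 5 and 7 in edgeR) and 0 for the Hippo list after Ubn1 depletion (2). With at least 10 counts in every library, which removes Cdx2, Gata3 and Hand1 from testing in the comparisons given here, the members called higher were 2 after Hira depletion (4), 1 after Ubn2 depletion (2), 1 in Ubn2 against Ubn1 (2) and 2 in Hira against Ubn1 (4), and the differentiated trophoblast genes called were 1 after Ubn1 (0) and 2 after Ubn2 depletion (4). With no filter, or with all 8 libraries in one fit, 1 member was called higher after Ubn2 depletion (2) and 2 other regulators after Ubn1 depletion (1). With no filter, and with DESeq2's size factors in edgeR, 1 differentiated trophoblast gene was called after Ubn1 depletion (0). On the adjusted p alone, 2 members were lower after Ubn1 depletion (1), the Hippo list gave 10, 4 and 13 calls after Hira, Ubn1 and Ubn2 depletion (3, 2 and 6), the imprinted domain 5 after Hira and 5 after Ubn2 depletion (3 and 3), other regulators 7 after Hira (4) and 2 after Ubn1 depletion (1), and differentiated trophoblast 2 after Ubn1 (0) and 8 after Ubn2 depletion (4).

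Over the libraries left out in turn, members called higher ranged from 1 to 2 after Ubn2 depletion, from 2 to 4 in Hira against Ubn2 and from 0 to 1 in Ubn2 against Ubn1, where the full fit has 2. Members called lower ranged from 0 to 1 after Hira depletion, from 0 to 2 after Ubn1 depletion and from 0 to 2 in Ubn2 against Ubn1. List calls ranged from 2 to 7 for other regulators (2 without control replicate 1, 7 without Hira_KD replicate 1) and 3 to 9 for the epithelium after Hira depletion (3 without Hira_KD replicate 1), and from 1 to 2 for other regulators (2 without Ubn1_KD replicate 1) and 1 to 2 for the Hippo list after Ubn1 depletion (1 without either control or without Ubn1_KD replicate 2).

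The sign turned only for differences that were not called. These were, over the libraries left out, Tfap2c after Hira (-0.28 to 0.32) and Ubn1 depletion (-0.043 to 0.12), in Hira against Ubn2 (-0.49 to 0.11) and in Hira against Ubn1 (-0.29 to 0.31). Gata2 ranged from -0.34 to 0.27 after Ubn1 depletion, from -0.23 to 0.38 after Ubn2 depletion, where it was -0.0024 with no filter, and from -0.13 to 0.33 in Ubn2 against Ubn1. Krt8 after Ubn1 depletion ranged from -0.080 to 0.10, Hand1 after Ubn2 depletion from -0.071 to 2.03, and in Hira against Ubn1 Tfap2a from -0.30 to 0.18 and Ascl2 from -0.55 to 0.43. Of the other fits of single members under all settings, 435 kept their direction and side of the threshold, 34 were no longer past it and 4 newly were.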
